A study of Mus musculus with 20 samples.

Results

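The RNA, m6A and chromatin accessibility of 46 cell cycle genes were followed through the differentiation of mouse embryonic stem cells (ESC) into cardiomyocyte cultures (CM), with an intact or a knocked-out Mettl3 gene. The genes were taken by symbol from a fixed list of cyclins, cyclin-dependent kinases, replication factors and mitotic regulators, 46 of the 21887 protein-coding genes considered, and were split by textbook role into 24 G1/S genes and 22 G2/M genes. The selection rule uses symbols and no measured value, though the list was chosen with earlier results of these data known. Mettl3 encodes the catalytic subunit of the nuclear enzyme complex that writes N6-methyladenosine (m6A) on RNA. The 4 groups were wild-type ESC (ESC WT), Mettl3-KO ESC (ESC KO), and the cultures grown from them through embryoid bodies in a medium with serum and ascorbic acid (CM WT and CM KO). All samples carry the strain label C57BL/6 and no treatment; how many clones were used, the ESC line and the day of collection are not stated. Chromatin-associated RNA sequencing (ChrRNA-seq) had 1 library per group, m6A sequencing of the same RNA fraction (Chrm6A-seq) 1 list of positions per group, and ATAC-seq, which marks open chromatin by transposase insertion, 3 libraries per group.

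Cyclin D with Cdk4 or Cdk6 carries cells out of G1, and cyclin E with Cdk2 into S phase, where origins licensed by the MCM helicase fire. E2F factors, released from the RB proteins, drive many G1/S genes. G2/M genes are driven later by the MuvB complex with MYBL2 and FOXM1, which acts at a promoter element called the cell cycle genes homology region (CHR), often beside CCAAT boxes that bind NF-Y. Mouse ESC are known for a short G1 phase and high cyclin E, and cardiomyocytes for leaving the cycle around birth. The RNA held on chromatin is rich in nascent transcripts, so its level stands closer to transcription than that of total RNA.

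The ChrRNA-seq libraries held an estimated 27900000 to 29800000 reads and the ATAC-seq libraries 70127 to 119302 called intervals. Groups of 4 values are given in 1 order throughout, the ESC pair before the CM pair and WT before KO in each. Mettl3 itself was at 1.73, 1.28, 1.18 and 1.07 RPKM. It shares its span with Tox4 and the deleted part is not stated, so the level does not check the label. Cardiomyocyte markers (8 genes, among them Tnnt2 and Myh6, which encode sarcomere proteins) summed to 7.91 RPKM in CM WT, with 4 of 8 at 1 RPKM or more. They summed to 0.636 RPKM in CM KO, with 0 of 8 at 1 RPKM, and to 0.914 and 0.700 RPKM in ESC WT and ESC KO. No cardiomyocyte marker thus reached 1 RPKM in the library labelled CM KO, and CM is used below as a label. Tnnt2 and Nkx2-5, a heart transcription factor, were not listed in either ESC library. Pluripotency markers (7 listed genes) summed to 73.6, 70.1, 9.03 and 15.8 RPKM, and embryonic erythroid markers (4 genes) to 0.118, 0.0941, 40.8 and 45.5 RPKM. Fibroblast and mesenchyme markers (6 genes) summed to 0.184, 0.253, 28.8 and 8.47 RPKM, visceral endoderm markers (5 genes) to 0.0383, 0.0527, 15.3 and 5.95 RPKM, and endothelial markers (4 genes) to 0.733, 0.815, 2.51 and 3.88 RPKM. The part of this makeup in the results below was not tested, and in such bulk samples fewer cycling cells and less RNA per cell cannot be told apart.

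Almost the whole set was lower in wild-type CM than in wild-type ESC, and less so in the KO. Of the 46 genes, 45 were listed in all 4 RNA files; Cdt1, which loads the MCM helicase, was in none. A mean of at least 0.5 RPKM over the 4 libraries was reached by 43, and Ccnd3 and Cdc25b fell below it. With 1 library per group there was no test, and a difference of at least 2-fold on the log2(RPKM + 0.1) scale was counted. In CM WT against ESC WT, 42 of 43 genes were lower, as were 66.7% of the 7984 genes compared. At least 2-fold lower were 12 of the 43, against 13.0% of all genes. Only Ccnd2 of the 43 was at least 2-fold higher, against 7.06% of all genes, and it reached the filter only through the CM libraries. The median log2 ratio was -0.80, and that of all genes -0.29, so 40 of 43 lay below the median gene. With libraries scaled to a median ratio of 0, Cdk4 and Cdk2 changed sign. The G2/M genes had a median of -0.89 with 8 of 21 at least 2-fold lower, and the G1/S genes -0.75 with 4 of 22. The number past 2-fold was 5 (4 lower, 1 higher) both with libraries scaled to a median ratio of 0 and with a pseudocount of 1 RPKM.

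In CM KO against ESC KO, 36 of 43 genes were lower and 7 higher, where 50.5% of all genes were lower. None of the 43 was at least 2-fold lower, where 5.05% of 7986 genes were, and Ccnd2 alone was at least 2-fold higher, where 8.31% were. The median log2 ratio was -0.30 against -0.01 over all genes, with 36 of 43 below the median gene. The change from ESC to CM was less negative or more positive with the KO than without it for 42 of 43 genes, and for 80.1% of all 7937 genes listed in the 4 files. The median of that difference was 0.52 (log2) over the set and 0.31 over all genes, and the exception was Mcm7 at -0.16. These medians were 0.60 for the 21 G2/M genes and 0.43 for the 22 G1/S genes.

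**Figure D1:**
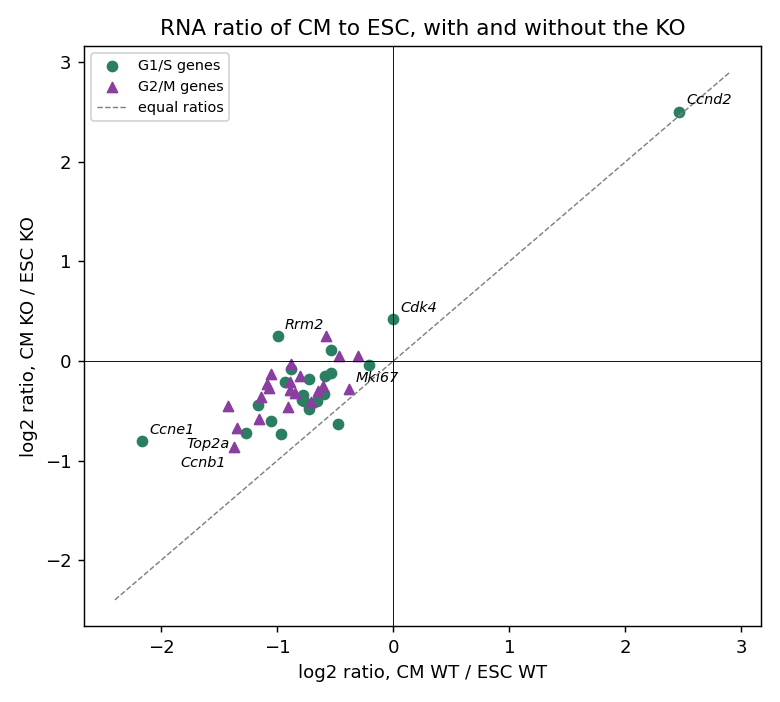
Each point is 1 of the 43 genes that reached 0.5 RPKM, with its log2 ratio of CM WT to ESC WT on the x axis and of CM KO to ESC KO on the y axis, on the RPKM + 0.1 scale; each ratio compares 1 library with 1 library. All points but that of Mcm7 lie above the dashed line of equal ratios, with Ccne1 at the far left and Ccnd2 at the upper right.

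The members' median difference with the KO was negative in ESC and positive in CM, as was that of all genes. In ESC KO against ESC WT, 32 of 43 genes were lower and 11 higher, where 69.5% of all genes were lower. The median log2 ratio was -0.22 against -0.13 over all genes, with 30 of 43 below the median gene. Ccne1 alone was at least 2-fold lower, where 0.901% of 7987 genes were, and it did not reach 2-fold with a pseudocount of 1 RPKM or with scaled libraries. None was at least 2-fold higher, where 0.927% of all genes were. In CM KO against CM WT, 37 of 43 were higher and 6 lower, where 28.8% of 8013 genes were lower. The median was 0.39 against 0.17 over all genes, and 35 of 43 lay above the median gene. With scaled libraries, Cdc6 and Cdc45 changed sign in the ESC comparison and Cdk4 and Plk1 in the CM comparison. None of the 43 was at least 2-fold lower (0.824% of all genes were) or higher (1.86% were). At 1.5-fold 5 were higher, with no share of all genes given beside them, so this count is not read as particular to the set. CM WT held the lowest of the 4 values for 36 of the 45 listed genes and ESC WT the highest for 30. CM KO lay between CM WT and ESC KO for 31 of 45.

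The promoters of G1/S and G2/M genes differed in the motifs they hold, which were counted without a test. RefSeq promoters (GRCm38.p6, 250 bases before to 50 after the start) were at hand for 37 of the 46 genes. The motifs searched on both strands were the CCAAT box, by these letters, the CHR, written TTTGAA or else in the variant TTCGAA, and the TATA box, written TATAAA. The E2F site was searched in the form TTGGCGC, in the variant form TTCGCGC and in the further variant form TTCCCGC. Matches to the E2F site and to the CCAAT box can share bases. A CHR match was held by 13 of 18 G2/M promoters (72.2%) and 3 of 19 G1/S promoters (15.8%), against 20.2% of 17492 protein-coding genes and 16.1% of the 5711 that passed the RNA filter. All 13 of these G2/M promoters also held a CCAAT box, a combination found in 8.22% of protein-coding genes and 7.13% of those passing the RNA filter. The CCAAT box was found in 15 of 18 G2/M promoters (83.3%) and 12 of 19 G1/S promoters (63.2%). Its share was 42.3% over all protein-coding genes and 43.1% over those passing the RNA filter. The E2F site was found in 9 of 19 G1/S promoters (47.4%) and 4 of 18 G2/M promoters (22.2%), against 11.8% of all protein-coding genes and 19.3% of those passing the RNA filter. A TATA box was found in Cdc45 and Cdk6 only, 2 of 37. It was found in 14.8% of all protein-coding genes and in 7.98% of those passing the RNA filter. A match describes these letters and does not show that a factor binds.

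**Figure D2:**
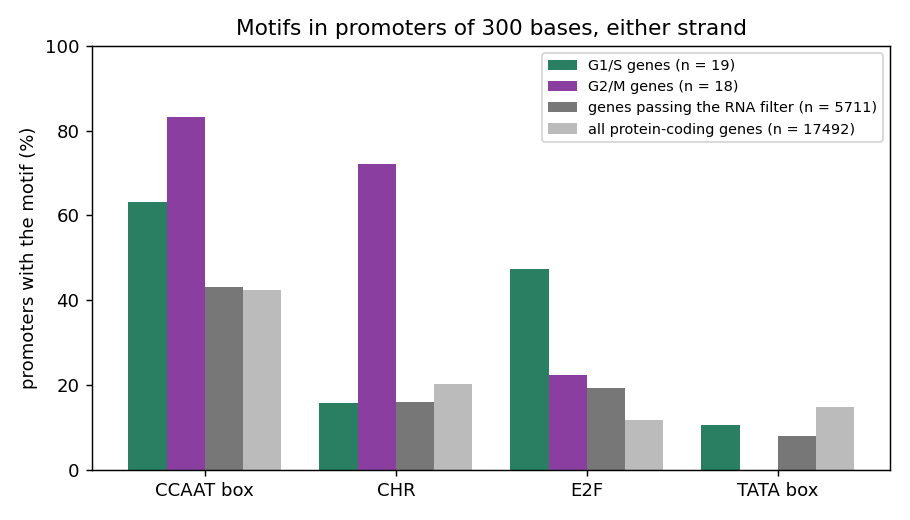
Bars give the percent of promoters with at least 1 match to each motif on either strand, for 19 G1/S genes, 18 G2/M genes, 5711 genes passing the RNA filter and 17492 protein-coding genes. The CHR bar of the G2/M genes reaches 72.2% and that of the G1/S genes 15.8%; the E2F bars stand at 22.2% and 47.4%.

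The following promoters show these arrangements in members that the RNA results turn on, 5′ to 3′ on the gene strand, with every motif match in capitals. Ccnb2 (chr9:70421505-70421804, minus strand) and Cdk1 (chr10:69352863-69353162, minus strand), a cyclin and its kinase, and Top2a (chr11:99024140-99024439, minus strand) hold several CCAAT boxes with a CHR close to the start, and Cdk1 holds E2F sites as well. Mki67 (chr7:135716330-135716629, minus strand) holds CCAAT boxes, a pair of CHR matches and an E2F site. Mcm6 (chr1:128359656-128359955, minus strand) holds E2F sites and CCAAT boxes without a CHR. Ccne1 (chr7:38107441-38107740, minus strand), the member whose RNA differed most between ESC WT and CM WT in the lower direction, holds none of these exact motifs in the window and is shown for contrast.
Ccnb2: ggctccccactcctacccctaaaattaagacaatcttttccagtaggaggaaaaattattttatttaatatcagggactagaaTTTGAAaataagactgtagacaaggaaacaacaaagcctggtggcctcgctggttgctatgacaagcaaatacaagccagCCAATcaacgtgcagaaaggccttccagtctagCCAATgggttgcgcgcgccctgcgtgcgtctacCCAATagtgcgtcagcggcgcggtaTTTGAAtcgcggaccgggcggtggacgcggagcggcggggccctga
Cdk1: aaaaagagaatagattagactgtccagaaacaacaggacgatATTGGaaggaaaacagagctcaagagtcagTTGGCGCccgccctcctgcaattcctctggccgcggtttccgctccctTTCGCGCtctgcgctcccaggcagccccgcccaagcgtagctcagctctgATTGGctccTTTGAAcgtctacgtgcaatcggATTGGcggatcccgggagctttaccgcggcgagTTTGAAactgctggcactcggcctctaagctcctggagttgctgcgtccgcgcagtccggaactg
Top2a: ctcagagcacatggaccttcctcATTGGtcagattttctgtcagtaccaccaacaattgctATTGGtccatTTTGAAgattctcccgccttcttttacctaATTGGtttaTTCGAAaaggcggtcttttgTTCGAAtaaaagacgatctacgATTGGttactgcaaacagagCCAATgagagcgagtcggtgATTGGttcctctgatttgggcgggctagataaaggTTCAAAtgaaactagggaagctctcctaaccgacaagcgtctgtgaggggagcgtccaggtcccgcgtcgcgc
Mki67: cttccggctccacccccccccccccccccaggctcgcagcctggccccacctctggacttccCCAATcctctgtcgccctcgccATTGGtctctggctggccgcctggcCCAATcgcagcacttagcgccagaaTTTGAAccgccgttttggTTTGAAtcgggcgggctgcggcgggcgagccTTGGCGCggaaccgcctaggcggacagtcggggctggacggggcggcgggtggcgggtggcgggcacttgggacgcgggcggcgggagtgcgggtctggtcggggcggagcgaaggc
Mcm6: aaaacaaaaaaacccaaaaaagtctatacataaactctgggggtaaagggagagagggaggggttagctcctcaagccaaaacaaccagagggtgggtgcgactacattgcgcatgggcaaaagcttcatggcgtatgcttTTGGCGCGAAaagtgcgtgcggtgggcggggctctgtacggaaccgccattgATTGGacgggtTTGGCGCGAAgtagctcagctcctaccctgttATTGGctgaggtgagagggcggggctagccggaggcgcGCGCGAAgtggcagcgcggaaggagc
Ccne1: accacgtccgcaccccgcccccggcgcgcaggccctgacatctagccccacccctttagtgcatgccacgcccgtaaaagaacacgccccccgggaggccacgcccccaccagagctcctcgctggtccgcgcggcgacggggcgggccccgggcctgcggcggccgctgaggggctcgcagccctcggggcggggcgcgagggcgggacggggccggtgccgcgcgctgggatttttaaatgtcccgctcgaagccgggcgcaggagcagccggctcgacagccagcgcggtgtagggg

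Values of single genes follow by role, in the order set above, and ratios carry 95% Clopper-Pearson intervals on estimated reads that cover counting error only. For 19 of the 46 genes the span overlaps another annotated gene, and no source says whether reads were counted by strand; these are Top2a, Ccna2, Ccnd1, Ccnd2, Ccnd3, Ccne2, Cdk2, Cdk4, Cdk6, Cdc20, Cdc25a, Cdc25c, Cdc45, Mcm7, Aurka, Kif11, Kif20a, E2f1 and Orc1, so their RPKM may hold reads of the neighbour. Over the 45 listed genes, the interval of CM WT to ESC WT lay wholly below 1 for 41, and that of CM KO to CM WT wholly above 1 for 35. These ratios were not scaled, and the intervals were not computed over all genes. Of all genes past the filter, 66.7% were lower in CM WT than in ESC WT, and 28.8% were lower in CM KO than in CM WT.

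The G1 cyclins did not move as 1 group: Ccne1 and Ccnd1 were at least 2-fold lower in CM WT than in ESC WT, and Ccnd2 was higher. Ccne1, the cyclin E1 that activates Cdk2 at the entry to S phase, stood at 4.11, 1.98, 0.837 and 1.09 RPKM. Its ratio was 0.204 (0.176 to 0.234) for CM WT to ESC WT, 0.551 (0.477 to 0.635) for CM KO to ESC KO and 0.482 (0.434 to 0.536) for ESC KO to ESC WT. ESC WT was the highest library and CM WT the lowest. Ccne2, cyclin E2, stood at 1.3, 1.35, 0.787 and 0.998 RPKM, a narrower range. Ccnd1, cyclin D1, stood at 1.92, 1.31, 0.872 and 0.833 RPKM and was lower in both CM libraries. Ccnd2, cyclin D2, stood at 0.184, 0.111, 1.47 and 1.1 RPKM. Of the 43 genes past the filter it alone was at least 2-fold higher in CM, and it reached the filter only through the CM libraries. Its ratio was 7.97 (6.66 to 9.54) in the wild type and 9.91 (7.9 to 12.5) in the KO. Ccnd3, cyclin D3, and Cdc25b, a phosphatase that activates Cdk1, did not reach 0.5 RPKM on average and ranged from 0.154 to 0.363 RPKM over the 4 libraries. The ratio of Cdc25b, without a pseudocount, was 2.11 (1.51 to 2.99) for CM KO to ESC KO.

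None of the G1 kinases passed 2-fold. Cdk4, a cyclin D partner, stood at 5.61, 4.45, 5.61 and 6.0 RPKM, with CM WT level with ESC WT at a ratio of 0.999 (0.89 to 1.12). Cdk6, the other cyclin D kinase, stood at 1.32, 0.818, 0.879 and 0.743 RPKM, and was lower with the KO in ESC at a ratio of 0.618 (0.595 to 0.642). Cdk2, the cyclin E partner, stood at 1.83, 1.49, 1.57 and 1.45 RPKM. Cdk4 and Cdk2 thus had CM levels within or near those of ESC. Cdc25a, a phosphatase that activates Cdk2, stood at 2.52, 2.18, 1.43 and 1.7 RPKM. E2f1, a transcription factor of the G1/S genes, stood at 1.5, 1.2, 1.0 and 1.3 RPKM, lowest in CM WT.

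The origin licensing genes were lower in CM in both genotypes, and the MCM genes were not uniformly lower with the KO in ESC. The MCM helicase unwinds DNA at the fork. Mcm2 stood at 2.31, 2.46, 1.35 and 1.74 RPKM, Mcm3 at 3.44, 3.64, 1.97 and 2.74 RPKM and Mcm4 at 2.59, 2.35, 1.69 and 2.11 RPKM. Mcm5 stood at 4.25, 5.2, 2.12 and 3.09 RPKM, Mcm6 at 2.52, 2.87, 1.41 and 2.17 RPKM and Mcm7 at 5.11, 5.65, 3.65 and 3.62 RPKM. Mcm5 had a ratio of 1.22 (1.16 to 1.29) for ESC KO to ESC WT, and Mcm2, Mcm3, Mcm6 and Mcm7 were between 1.06 and 1.14 on the same ratio, with the intervals of Mcm2 and Mcm3 including 1. Mcm4 was the exception at 0.909 (0.829 to 0.996). Orc1, the origin recognition subunit that recruits Cdc6, stood at 2.0, 1.71, 0.768 and 1.0 RPKM with a ratio of 0.385 (0.356 to 0.415) in CM WT to ESC WT. Cdc6, which loads the helicase with Cdt1, stood at 1.3, 1.23, 0.746 and 1.07 RPKM. Gmnn, geminin, the inhibitor of Cdt1, stood at 2.56, 2.03, 1.09 and 1.47 RPKM. All 10 genes measured of this role were lower in CM than in ESC in both genotypes, with Orc1 and Gmnn past 2-fold in the wild type. Cdc45, a helicase cofactor, averaged 0.911 RPKM.

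Genes of DNA synthesis were lower in CM WT than in ESC WT by just under 2-fold on the RPKM + 0.1 scale, and with the KO Rrm2 was higher in CM than in ESC. Rrm2, the ribonucleotide reductase subunit that limits the supply of deoxynucleotides, stood at 4.62, 3.68, 2.26 and 4.4 RPKM. Its ratio of CM KO to CM WT, 1.94 (1.72 to 2.2), was the highest of the set. Pcna, the sliding clamp of DNA polymerase, stood at 5.28, 4.05, 2.81 and 3.84 RPKM. Tyms, thymidylate synthase, stood at 3.46, 3.02, 1.76 and 2.6 RPKM. CM KO lay above CM WT for each of these 3 genes.

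The mitotic cyclins and kinases were all lower in CM WT than in ESC WT. Ccnb1, cyclin B1, stood at 4.74, 3.97, 1.76 and 2.13 RPKM, with ratios of 0.372 (0.33 to 0.418) in the wild type and 0.536 (0.479 to 0.599) in the KO. Ccnb2, cyclin B2, stood at 1.65, 1.19, 0.743 and 1.08 RPKM. Cdk1, the kinase that cyclin B activates, stood at 4.49, 3.64, 2.37 and 2.95 RPKM. These 3 genes had their highest level in ESC WT, then ESC KO, then CM KO, and their lowest in CM WT. Ccna2, cyclin A2, stood at 3.52, 2.79, 1.85 and 2.4 RPKM. Aurka, a spindle pole kinase, stood at 2.08, 1.8, 1.06 and 1.28 RPKM, and Aurkb, the kinase of the chromosomal passenger complex, at 1.63, 1.31, 1.06 and 1.58 RPKM. Aurkb in CM KO was close to its ESC WT level. Birc5, survivin, a subunit of the same complex, stood at 2.45, 2.21, 1.32 and 1.75 RPKM. Plk1, which promotes mitotic entry, stood at 1.39, 1.17, 0.811 and 0.857 RPKM, and Plk4, which starts centriole duplication, at 1.97, 2.16, 1.58 and 2.24 RPKM. For Plk4 the CM KO library was the highest. Cdc25c, a phosphatase of Cdk1, averaged 0.742 RPKM.

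Spindle checkpoint and kinetochore genes held 5 of the 12 genes at least 2-fold lower in CM WT. Bub1b, the checkpoint protein BubR1, stood at 1.79, 1.22, 0.753 and 0.922 RPKM, and Mad2l1, which holds back the anaphase-promoting complex, at 1.24, 1.0, 0.532 and 0.844 RPKM. Bub1, a checkpoint kinase, stood at 2.87, 2.45, 1.51 and 2.39 RPKM, and Cdc20, the activator of the anaphase-promoting complex, at 2.63, 1.86, 1.64 and 1.5 RPKM. Among the 21 G2/M genes that passed the filter, CM KO lay below CM WT for Cdc20 only. Cenpa, the histone H3 variant of centromeres, stood at 6.49, 4.88, 2.36 and 3.54 RPKM, with a ratio of 0.363 (0.329 to 0.402) in the wild type. Cenpf, a kinetochore protein, stood at 3.36, 3.42, 1.45 and 2.25 RPKM, and Cenpe, a kinetochore motor, at 1.67, 1.73, 1.07 and 1.44 RPKM. With the KO in ESC, Cenpf had a ratio of 1.02 and Cenpe of 1.03. Kif20a, a motor of cytokinesis, stood at 3.18, 2.66, 1.46 and 2.19 RPKM, and Kif11, the motor that separates spindle poles, at 2.27, 1.88, 1.26 and 1.68 RPKM.

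Top2a and Mki67, of mitotic chromosome structure, had the highest mean RPKM of the set. Top2a, the topoisomerase that untangles DNA, stood at 12.9, 13.5, 5.02 and 8.44 RPKM, with a ratio of 0.389 (0.376 to 0.403) in the wild type and 0.625 (0.607 to 0.643) in the KO. Mki67, which encodes Ki-67 at the surface of mitotic chromosomes, stood at 6.73, 11.4, 5.13 and 9.35 RPKM. Both KO libraries were above both WT libraries for Mki67, as they were for Plk4 and no other of the 45. Its ratio was 1.69 (1.63 to 1.75) for ESC KO to ESC WT and 1.82 (1.75 to 1.9) for CM KO to CM WT.

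**Figure D3:**
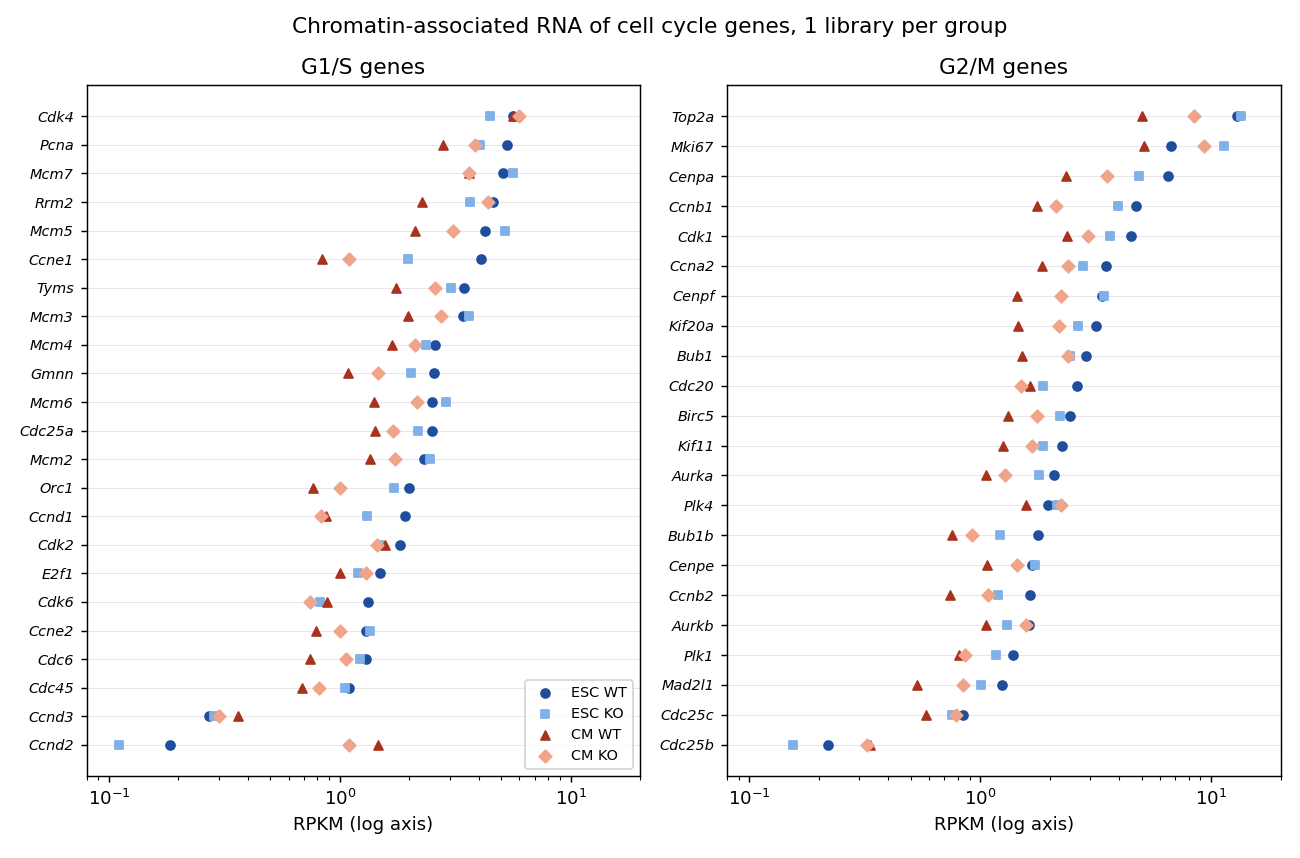
Each row is 1 of the 45 listed genes and each point its RPKM (log axis) in 1 library, with G1/S genes on the left and G2/M genes on the right, ordered by ESC WT. CM WT is the lowest of the 4 points in 36 of 45 rows; Ccnd2 is the gene with both CM points far to the right, and for Mki67 both KO points lie to the right of both WT points.

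Other genes of the same pathway, from lists that do not overlap the 46, were counted in the same way. Of 31 other replication genes, 10 were at least 2-fold lower in CM WT than in ESC WT and 0 higher, and their median log2 ratio was -0.66, where 13.0% of all genes were at least 2-fold lower with a median of -0.29. In ESC WT and CM WT, Dbf4, the activator of the kinase Cdc7, was at 4.97 and 1.71 RPKM, Pola1, of the primase complex, at 2.66 and 0.897, and Rfc5, a clamp loader subunit, at 3.17 and 1.13. Of 29 other mitotic genes, 8 were at least 2-fold lower, against the same 13.0% of all genes, and 0 higher, with a median of -0.88 against -0.29 over all genes. Ect2, which acts in cytokinesis, was at 4.60 and 1.44 RPKM in these libraries, Sgo1, the protector of centromeric cohesion, at 3.36 and 1.21, and Kif18a, a motor at microtubule ends, at 2.0 and 0.707. In the KO, 0 of 31 and 1 of 29 were at least 2-fold lower in CM, where 5.05% of all genes were. Between CM KO and CM WT none of these 60 passed 2-fold; the medians were 0.39 and 0.32, against 0.17 over all genes.

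In CM WT against ESC WT, 13.0% of all genes were at least 2-fold lower and 7.06% higher. Read against these shares, the counts of the lists that follow show nothing particular to them. Of 7 MuvB, MYBL2 and FOXM1 genes, Mybl2, which binds MuvB in S phase, was the 1 past 2-fold in CM WT against ESC WT, at 10.0, 9.6, 1.86 and 3.03 RPKM. Lin52 and Lin54, MuvB core subunits, were at 2.13 and 1.24 RPKM in ESC WT and at 1.04 and 0.851 in CM WT. Of 9 RB and other E2F genes that passed the filter 0 passed 2-fold, and E2f8, an E2F repressor, had the largest difference of these, at 1.54 RPKM in ESC WT and 0.796 in CM WT, with E2f4 at 3.17 and 1.84 and Tfdp2 at 1.27 and 0.814. Chek1, a checkpoint kinase, was the 1 of 6 checkpoint and WEE1 family genes past 2-fold, at 1.63 and 0.686 RPKM, with Chek2 at 1.77 and 0.896 and Atr at 1.01 and 0.596. Of 15 ubiquitin ligase genes 1 passed, Fbxo5, the inhibitor of the anaphase-promoting complex, at 4.56 and 2.0 RPKM, with Fbxw7 at 1.96 and 1.07 and Anapc10 at 1.16 and 0.653. Of 17 cohesin and condensin genes 0 passed, with Ncapg at 2.38 and 1.28 RPKM, Rad21 at 4.49 and 2.5 and Smc2 at 2.54 and 1.42.

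Of 7 CDK inhibitor genes, 3 reached a mean of 0.5 RPKM and the other 4 were not compared. Cdkn1a and Cdkn1c were at least 2-fold higher in CM WT than in ESC WT, where 7.06% of all genes were, and Cdkn1c reached the filter only through CM WT. Cdkn1a, p21, was at 0.631, 0.8, 2.17 and 1.85 RPKM. Cdkn1b, p27, stood at 0.888, 0.620, 1.62 and 1.68 RPKM in the same order. Cdkn1c, p57, was at 0.199, 0.0527, 2.5 and 0.0992 RPKM. Cdkn1c was the 1 gene of these cell cycle lists at least 2-fold lower in CM KO than in CM WT, where 0.824% of all genes were. As it passed the filter only through CM WT, the library in which it is high, this call is not independent of the filter.

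The promoters of the cell cycle genes were open in every library. Of the 37 genes with a RefSeq promoter, 37 had a called ATAC-seq interval over it in 12 of 12 libraries, as did 95.1% of 5711 genes that passed the RNA filter and 58.6% of 17492 protein-coding genes. The 46 genes plus 2 kb held 232 of the 114793 merged regions near protein-coding genes, and 34.9% of the 232 were called in all 12 libraries against 24.4% of the 114793. The members' windows held 148 to 167 intervals in ESC WT, 155 to 159 in ESC KO, 121 to 129 in CM WT and 104 to 118 in CM KO. Covered length summed to between 78172 and 83398 bp in the 6 ESC libraries, 63560 and 67346 bp in CM WT and 55923 and 59188 bp in CM KO. The median gene of all had less covered length in CM too, by 0.21 to 0.45 (log2) below ESC WT, and libraries were centred on that median before testing.

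Covered length was tested with limma over 16775 genes, all 46 among them, with p-values adjusted by Benjamini-Hochberg over all genes. Whether replicate libraries stem from different cultures is not stated, so these p-values measure a spread between libraries that may be technical. In CM WT against ESC WT, 7 of 46 were lower (21% of all genes were) and 7 higher (18.7% of all). The 7 lower genes were Cdc25b, Tyms, Cenpa, Mcm2, Plk1, Cdk1 and Kif11. The 7 higher genes were Cdk6, Mad2l1, Ccne1, Mki67, Cdt1, Cdk4 and Mcm4. The Tyms call was lost in limma without any 1 of 5 of the 6 libraries compared, the exception being CM WT replicate 3. The 7 higher genes were higher relative to the median gene, with Cdk6, Mad2l1, Cdt1 and Mcm4 changing sign without that centring. Without centring 22 of 46 were lower and 0 higher, where the median gene was lower in CM too. For CM KO against ESC KO, 5 were lower (20.4% of all genes were), namely Cdc25b, Cdk6, Cenpa, Mcm2 and Cdc6. Another 12 were higher (16.1% of all), namely Mcm3, Bub1, Pcna, Mad2l1, Ccne1, Mki67, Mcm5, Cdc25a, Cdk4, Cdk2, Aurkb and Mcm4, of which Bub1, Mcm5, Cdc25a, Cdk2, Aurkb and Mcm4 changed sign without centring, where 30 were lower and 0 higher. Read against these shares, the counts show nothing particular to the set. For the counts without centring no share of all genes is given, so they are not read as closing of these genes in particular. Without ESC WT replicate 1 the count in CM WT against ESC WT was 9 of 46, in place of 14.

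Covered length was lower in CM of both genotypes for Cdc25b, Cenpa and Mcm2, though for Cenpa in the KO the sign turned, to 0.26 on the log2 scale, with intervals held to a −log10 q of at least 5. For Cdc25b, the windows held 1986, 1958 and 1805 bp in ESC WT, 1885, 1581 and 1440 bp in ESC KO, 992, 1187 and 1123 bp in CM WT and 747, 875 and 783 bp in CM KO. The log2 difference was -0.42 ± 0.09 (SE; adjusted p = 0.00374) in the wild type and -0.46 ± 0.09 (SE; adjusted p = 0.00266) in the KO by limma. The ESC and CM libraries did not overlap. For Cenpa, they held 1139, 1240 and 1397 bp in ESC WT, 1303, 1283 and 1328 bp in ESC KO, 728, 806 and 698 bp in CM WT and 729, 721 and 620 bp in CM KO, again without overlap. Mcm2 held 1740, 1814 and 1526 bp in ESC WT, 1816, 1505 and 1494 bp in ESC KO, 861, 762 and 767 bp in CM WT and 386, 801 and 405 bp in CM KO, with log2 differences of -0.64 ± 0.16 (SE; adjusted p = 0.00824) and -0.94 ± 0.16 (SE; adjusted p = 0.00114) by limma. At the gene ends alone the calls of all 3 in the wild type were lost. The covered lengths of Ccne1, whose RNA was lower in CM, were 1160, 1207 and 1180 bp in ESC WT, 991, 1230 and 1397 bp in ESC KO, 1244, 1343 and 1352 bp in CM WT and 1199, 1195 and 1376 bp in CM KO. The CM WT libraries lay above those of ESC WT, and CM KO overlapped ESC KO. Relative to the median gene the log2 difference of Ccne1 was 0.41 ± 0.11 (SE; adjusted p = 0.00929) in the wild type and 0.46 ± 0.11 (SE; adjusted p = 0.00549) in the KO by limma. Mki67 held 1012, 1157 and 1014 bp in ESC WT, 1158, 956 and 1102 bp in ESC KO, 1052, 1131 and 1270 bp in CM WT and 1094, 1082 and 1138 bp in CM KO, with the ESC and CM libraries overlapping in both genotypes and log2 differences of 0.38 ± 0.09 (SE; adjusted p = 0.00836) and 0.44 ± 0.09 (SE; adjusted p = 0.004) by limma. For Ccne1 and Mki67 these calls were lost without centring and at the gene ends alone.

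Between KO and WT, limma called no member in ESC and 3 in CM. In CM the count was 0 at the gene ends alone and 7 (6 lower, 1 higher) without centring. No share of all genes is given for these settings, and the median gene had less covered length in the CM KO libraries than in those of CM WT. In ESC KO against ESC WT, limma called 0 of 46 lower (0.405% of all genes were) and 0 higher (0.656% of all), with 1 at an unadjusted p under 0.05. For CM KO against CM WT it called Cdk6 lower (8.15% of all genes were) and Tyms and Kif11 higher (3.95% of all). Cdk6 held 7410, 6719 and 6688 bp in ESC WT, 7609, 7130 and 6857 bp in ESC KO, 6668, 7731 and 5881 bp in CM WT and 4365, 4562 and 4362 bp in CM KO. The 3 CM KO libraries lay below the other 9, and the log2 difference was -0.44 ± 0.07 (SE; adjusted p = 0.00197) by limma. At the gene ends alone it had the opposite sign, at 0.32 (adjusted p = 0.285), and with a −log10 q of at least 5 it missed the threshold (adjusted p = 0.0965). Tyms held 2597, 2552 and 2260 bp in ESC WT, 2179, 2550 and 2873 bp in ESC KO, 1546, 1544 and 1779 bp in CM WT and 1997, 2169 and 2032 bp in CM KO, and CM KO lay above CM WT by 0.46 ± 0.10 (SE; adjusted p = 0.0106) in limma, a call lost at the gene ends alone, where the difference was 0.04 (adjusted p = 0.811). Kif11 held 3510, 2731 and 2529 bp in ESC WT, 2543, 2254 and 2755 bp in ESC KO, 1679, 1616 and 1377 bp in CM WT and 1792, 1847 and 2052 bp in CM KO, with a difference of 0.40 ± 0.11 (SE; adjusted p = 0.0276) in limma that missed the threshold without centring at 0.26 (adjusted p = 0.161) and at the gene ends at 0.16 (adjusted p = 0.409). In limma the Kif11 call was also lost with a −log10 q of at least 5 (adjusted p = 0.616) and without CM WT replicate 2 (adjusted p = 0.0761), CM WT replicate 3 (adjusted p = 0.0857) or CM KO replicate 3 (adjusted p = 0.0888).

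The difference of the KO effect between CM and ESC was itself tested with limma. It passed for Cdk6, at -0.51 ± 0.10 (SE; adjusted p = 0.0128), where 3.85% of all genes were called lower, and for Kif11, at 0.57 ± 0.15 (SE; adjusted p = 0.044), where 1.48% were. Cdk6 passed with each of the 12 libraries left out, with adjusted p between 0.0057 and 0.0371, and missed the threshold where intervals were held to a −log10 q of at least 5 (adjusted p = 0.478). At the gene ends alone the Cdk6 difference had the opposite sign, at 0.25 (adjusted p = 0.664). Kif11 missed the threshold in limma without 10 of the 12 libraries, the exceptions being ESC WT replicate 3 (adjusted p = 0.0444) and CM WT replicate 1 (adjusted p = 0.0381); the highest adjusted p was 0.101 without ESC KO replicate 2. The Kif11 difference also missed it in limma without centring (adjusted p = 0.133), at the gene ends (adjusted p = 0.581) and with a −log10 q of at least 5 (adjusted p = 0.598).

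**Figure D4:**
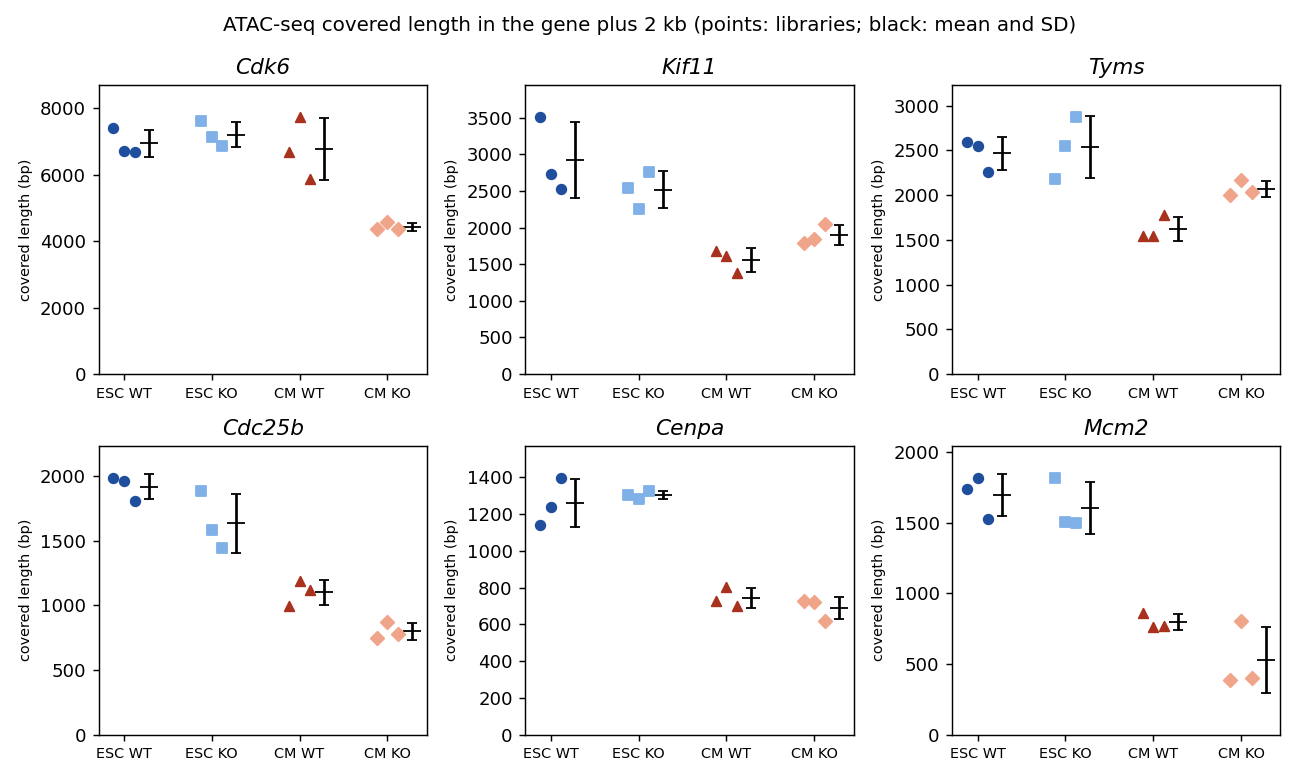
Points give the covered length in bp of 3 libraries per group for 6 genes, each window being the gene plus 2 kb, with the group mean and SD beside them in black; values are not centred. CM KO lies below all other groups in Cdk6, and both CM groups lie below both ESC groups in Cdc25b, Cenpa and Mcm2.

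Single regions were counted as opened or closed where 3 of 3 libraries of a group and 0 of 3 of the other had an interval, with no test, since an exact test of 3 against 3 cannot go below p = 0.1. In CM WT against ESC WT, 9 of the 232 regions opened (5.09% of the 114793 did) and 29 closed (10.7%). The opened regions lay in Ccnd3 (3), Cdk6 (3), Cdc6, Cdc25c and Ccnd2. The closed regions lay in 20 genes, with 3 each in Cdk6, Ccnd3 and Kif11, 2 each in Cdc6, Cenpa and Mcm2, and 1 each in Mcm6, Cenpf, Cdk1, Top2a, Birc5, Rrm2, Gmnn, Cdc45, Bub1b, Cdc25b, Ccna2, Plk4, Cdt1 and Cdc25a. When libraries were cut to the same interval number, 8 opened and 14 closed. In CM KO against ESC KO, 1 opened (0.791% of all) and 19 closed (9.24%). The opened region was in Cdk6, and the closed ones lay in Cdk6 (4), Cenpa (2), Ccnd3 (2) and 1 each in Mcm6, Cenpf, Cdc6, Top2a, Birc5, Rrm2, Kif20a, Cdc25c, Cdc25b, Plk4 and Cdc25a. With equal interval numbers, 4 of 168 member regions opened (2.63% of 78799 did) and 5 closed (3.55%).

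Few regions separated CM KO from CM WT. In CM KO against CM WT, 0 of 232 opened (0.626% of all regions did) and 8 closed (3.39%), a share close to that of all regions. They lay in Cdk6 (3), Ccnd3 (3), Cdc6 and Cdc25b. Inside Cdk6, the regions at chr5:3488254-3488712 and chr5:3494422-3494827 (mm10) were called in 3 of 3 CM WT libraries and in 0 of 9 others, and the region at chr5:3502640-3503312 in 3 of 3 CM WT and 3 of 3 CM KO libraries but in no ESC library. Another region, at chr5:3351766-3352351, was called in all libraries but those of CM KO. The Ccnd3 regions at chr17:47518042-47518519, chr17:47523136-47523402 and chr17:47559791-47560139 were likewise called in CM WT only. These lie within the gene spans; whether they are exonic or intronic was not determined here. In ESC KO against ESC WT, 1 region opened, in Birc5 (1.08% of all did), and 4 closed, in Cdk1, Bub1b, Cenpa and Mcm2 (1.26% of all). Leaving out a library loosens the rule, and these 5 regions became 8 without ESC WT replicate 2 or ESC KO replicate 1 and 10 without ESC KO replicate 2.

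The m6A lists gave positions in 28 to 34 of the 46 cell cycle genes, except that of CM KO with 20. Each list holds positions with their sequence context and no measure of strength. They held 16983, 18076, 25617 and 13962 distinct positions, so the lists of Mettl3-KO cells were not empty, and what share of listed positions is background cannot be told from the lists. At least 1 position was listed for 28, 32, 34 and 20 of the 46 genes. All of these were among the 43 genes passing the RNA filter. Of the 8116 genes that passed it, 56.5%, 56.7%, 68.3% and 49.6% had a position, and of the 43 members 65.1%, 74.4%, 79.1% and 46.5%. These shares were not matched for RNA level, with which detection can move. The median of the 45 listed members was 2.45, 2.03, 1.41 and 1.68 RPKM, against 1.26, 1.11, 1.05 and 1.17 over genes past the filter. Over the 4 lists 19 members had a position on each, 8 on 3, 3 on 2, 8 on 1 and 8 on none, the last being Ccnb2, Ccnd3, Ccne2, Cdc25b, Cdt1, Plk1, Bub1b and Gmnn.

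The positions were concentrated in a few genes. Mki67 had 33, 32, 36 and 36 positions in the order of the lists, more than any other member, and 63 distinct ones, 13 of them on all 4 lists. Cenpf had 21, 23, 20 and 13, and Top2a 11, 19, 5 and 3. These 3 genes held 65 of 138, 74 of 141, 61 of 128 and 52 of 80 member positions. In Mki67, 69.7% to 80.6% of the positions of each list fell between 15000 and 22000 bases from the start of the gene, and in Cenpf 81.0% to 100% between 28000 and 36000 bases. Top2a had the widest spread between lists, with 19 positions in ESC KO and 3 in CM KO. Its RNA stood at 12.9, 13.5, 5.02 and 8.44 RPKM, so CM KO had fewer positions than CM WT at a higher RNA level.

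**Figure D5:**
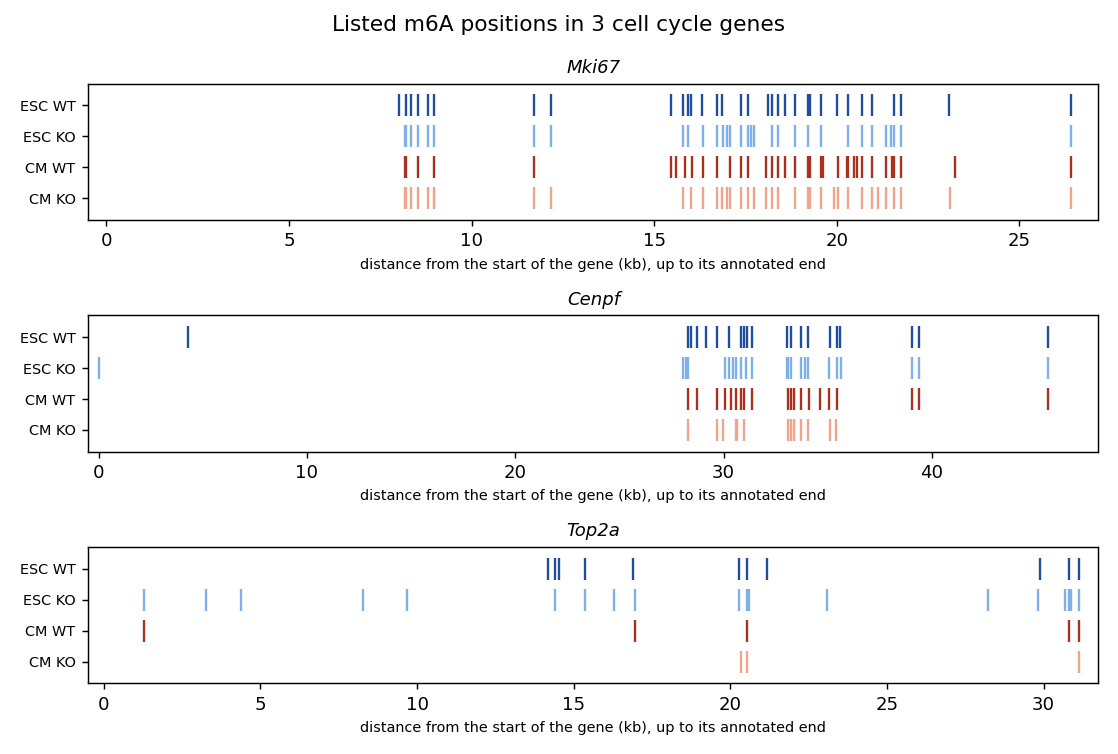
Each tick is 1 listed m6A position by its distance in kb from the start of the gene, with 1 row per list, for Mki67, Cenpf and Top2a. The Mki67 and Cenpf positions gather in the same stretches in all 4 rows, and the Top2a rows thin from 19 ticks in ESC KO to 3 in CM KO.

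Other members had fewer positions. Cenpe had 9, 6, 7 and 2 and Plk4 7, 5, 5 and 5 positions. Cenpa had 4, 4, 1 and 0, Orc1 3, 5, 3 and 0 and Ccnb1 4, 1, 0 and 0, with Ccnb1 and Cenpa at their highest RNA in ESC WT. Cenpa RNA was however higher in CM KO (3.54 RPKM), without a position, than in CM WT (2.36 RPKM), with 1. Ccnd2 was listed in CM WT alone, with 4 positions, and Cdk6 in CM WT alone, with 2. Aurkb (2), Cdc20 and Cdk2 (1 each) were also listed in CM WT alone. Ccna2, Cdc25c and Mad2l1 were listed in ESC KO alone, with 1 position each, and Ccnd1 and Cdc45 in ESC KO and CM WT with 1 each. The positions of the other members numbered 0 to 4 on each list: Mcm5, Mcm6 and Mcm7 reached 4, Cdk1, Kif11 also 4, Mcm3, Mcm4, Bub1, E2f1 and Pcna 3, and Mcm2, Ccne1, Cdk4, Cdc25a, Cdc6, Aurka, Kif20a, Birc5 and Rrm2 2. Tyms had the same single position on all 4 lists.

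Shared positions were compared with those of all genes, without a test. Of the 138 member positions in ESC WT, 55.8% were also on the ESC KO list, and of the 141 in ESC KO 54.6% on that of ESC WT; over all genes the shares were 53.9% and 50.7%. Of the 128 in CM WT, 39.8% were on the CM KO list and of the 80 in CM KO 63.8% on that of CM WT, against 35.6% and 65.3% over all genes. Of the 263 distinct member positions, 35 were on all 4 lists.

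The listed context GGAC, a well-known m6A context, made up 18.8%, 21.3%, 28.1% and 21.3% of member positions in the 4 lists and 31.3%, 29.0%, 33.5% and 32.8% of all positions. In the last 20% of the gene lay 31.2%, 27.0%, 34.4% and 25% of member positions, and 42.7%, 37.1%, 45.1% and 42.4% of all positions that could be placed. Both member shares were below those of all positions on each of the 4 lists, and no test was made of either, since positions of 1 gene are not independent and Mki67 and Cenpf weigh heavily.

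Member positions close to the start of the gene were most numerous on the ESC KO list. Within the first 100 bases lay 3, 11, 6 and 3 member positions. Over all genes these positions numbered 450, 753, 976 and 558, or 2.65%, 4.17%, 3.81% and 4.0% of each list. In ESC KO the 11 lay in Bub1, Ccnd1, Cdk1, Cenpf, Mad2l1, Mcm2, Mcm3, Mcm5, Mcm6, Orc1 and Tyms, of which Mcm6 and Tyms had the same position on all 4 lists. The listed letters were found in RefSeq sequence only in part. Of 532 positions in the first 47 bases of genes with a promoter sequence, 40.6% had the listed letters at that distance, against 0.564% at 1 base before. Among the 5 such member positions, that of Cenpf, 29 bases from the start and listed in ESC KO, had them. It is shown with its surroundings at chr1:189688044-189688067 (GRCm38.p6, minus strand), the listed GAAC in capitals.
Cenpf: ggtcggggagGAACggtgcgctgt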

How the data were processed

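ATAC-seq (12 libraries), ChrRNA-seq (4 libraries) and Chrm6A-seq (4 lists) of ESC and CM cultures, WT or Mettl3-KO, were grouped by sample title. Bowtie, HISAT2, MACS2, Picard, cutadapt and the build mm10 appear in the submitters' processing notes, without roles, versions or settings. ATAC-seq was sequenced single end with 75 bp reads per the labels' protocols, and no source states a shift for the transposase offset. The molecule label of CM KO replicate 3 names RNA; since its deposited file is a peak list, it was kept among the ATAC-seq libraries.

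The authors deposited RPKM per Ensembl gene for ChrRNA-seq. The deposited peak lists, 1 per library, hold a score, a fold enrichment (ratio) and −log10 p- and q-values per summit, which were used only to filter intervals. The deposited m6A lists hold a gene, a position and its 4-base context. Read depth behind the RPKM values was inferred from steps between low values over RefSeq gene spans; between 54.3% and 56.5% of genes with few reads lay within 0.05 of a whole read, where 10% would by chance, so estimated reads are approximate. Counting intervals are 95% Clopper-Pearson intervals. Log2 ratios were taken on RPKM + 0.1 over genes with a mean of at least 0.5 RPKM. No count test was run, because the files hold no counts.

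For ATAC-seq, several summits of an interval were counted once, and the bp covered in each gene plus 2 kb was taken from RefSeq gene positions (GRCm38.p6). The test was limma 3.58.1 in R 4.3.3 with a trend on log2(bp + 200), genes with a mean of at least 200 bp, libraries centred on their median, 4 groups sharing 1 spread, and an adjusted p threshold of 0.05. On simulated data with 200 genes changed 2-fold in CM WT against ESC WT among 16775, 87.5% were recovered, with 9 false calls. Regions were intervals of 12 libraries merged where they shared 1 bp. Everything else ran in Python 3.11.15 with pandas 2.3.3. Alternatives were another pseudocount, filter, scaling, interval threshold or window, a replicate block and each library left out.

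Members and lists were chosen with earlier results of these data known. All 46 members are accounted for; values in every library are printed for members with a mean of at least 1 RPKM or past 2-fold, ATAC-seq members by call or changed region, and m6A members by listed position. In the other cell cycle lists the up to 3 genes with the largest difference in CM WT against ESC WT are named. No promoter sequence was used for Ccna2, Ccnd1, Ccnd2, Ccne2, Cdc25c, Mcm4, Aurkb, Kif20a and Gmnn. Neither RNA assay had replicates, so neither was tested.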

Additional observations from a re-analysis of the deposited data

Results flagged for a closer look

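For Cdk6 in ATAC-seq, the difference in covered length between KO and WT was not the same in CM and ESC. The difference in CM minus that in ESC was -0.51 (log2, SE 0.10, limma adjusted p = 0.0128), with 6668, 7731 and 5881 bp in CM WT and 4365, 4562 and 4362 bp in CM KO. Kif11 was picked out by the same test in the other direction, with a difference of 0.57 (SE 0.15, limma adjusted p = 0.044).
Both differences lost the call with intervals held to a −log10 q of at least 5, and at the gene ends alone, where Cdk6 had the opposite sign; Kif11 also lost it without 10 of the 12 libraries.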

How the results depend on the processing

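In ChrRNA-seq, the members at least 2-fold different in CM WT against ESC WT (13) were 5 with a pseudocount of 1 RPKM, 5 with libraries scaled to a median ratio of 0 and 34 at 1.5-fold. In CM KO against ESC KO (1) they were 0 with a pseudocount of 1 RPKM, 0 with a filter at a mean of 1 RPKM and 9 at 1.5-fold. In ESC KO against ESC WT (1) they were 0 with that pseudocount, 0 with scaled libraries and 3 at 1.5-fold, and in CM KO against CM WT (0) they were 5 at 1.5-fold. The shares of all genes under these alternatives are not given, so these counts show only how the calls move. Of 1012 single-gene RNA values under these alternatives, 6 changed sign, all with libraries scaled to a median ratio of 0, and none of these was past 2-fold. In CM WT against ESC WT, the log2 ratio of Cdk4 went from -0.00086 to 0.29 and that of Cdk2 from -0.21 to 0.09. In ESC KO against ESC WT, Cdc6 went from -0.07 to 0.06 and Cdc45 from -0.05 to 0.08. Between CM KO and CM WT, Cdk4 went from 0.10 to -0.07 and Plk1 from 0.07 to -0.10.

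In ATAC-seq covered length, no centring gave 22 members for CM WT against ESC WT (14 with centring), 30 for CM KO against ESC KO (17), 7 for CM KO against CM WT (3) and 1 for the difference of the KO effect between CM and ESC (2). Gene ends plus or minus 1 kb gave 6, 10, 0 and 0. Neither alternative was set beside the share of all genes in the same setting. For that difference a pseudocount of 1000 bp gave 1 and intervals with a −log10 q of at least 5 gave 0. Leaving out a library gave 9 to 13 members for CM WT against ESC WT, 13 to 15 for CM KO against ESC KO, 0 to 0 for ESC KO against ESC WT, 2 to 4 for CM KO against CM WT and 1 to 2 for the difference. Deviations of same-numbered libraries had correlations from -0.0499 to 0.0213 over 18 pairs, against -0.0467 to 0.0411 over 36 other pairs. This measure shows no shared deviation and cannot tell whether same-numbered libraries share a culture or batch. With the replicate block the 5 counts were 13, 17, 0, 3 and 1. The 17 shared 15 genes with the fit without the block. Under the block, limma did not call Tyms in CM WT against ESC WT (adjusted p = 0.0559), Bub1 (adjusted p = 0.0588) or Mcm5 (adjusted p = 0.0652) in CM KO against ESC KO, or Kif11 in the difference (adjusted p = 0.0505).

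Some genes reversed. Without centring, the log2 differences in CM WT against ESC WT were -0.04361 for Cdk6, -0.0026 for Mad2l1, -0.002791 for Cdt1 and -0.06363 for Mcm4, and in CM KO against ESC KO -0.07738 for Bub1, -0.1297 for Mcm5, -0.08701 for Cdc25a, -0.09117 for Cdk2, -0.006164 for Aurkb and -0.1289 for Mcm4. With a −log10 q of at least 5, Cdk6 was at -0.04097 in the wild type and Cenpa at 0.2565 in the KO. At the gene ends, CM WT against ESC WT gave -0.5343 for Cdk6, 0.04988 for Tyms and -0.04451 for Cdt1, CM KO against ESC KO 0.03416 for Cdc6, CM KO against CM WT 0.3212 for Cdk6 and the difference 0.2519 for Cdk6. The other ATAC-seq gene values kept their direction, 348 with the same side of the threshold and 114 losing the call.

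Of regions opened or closed, CM WT against ESC WT (38) gave 22 with an equal number of intervals. CM KO against ESC KO (20) gave 10 with a −log10 q of at least 5 and 9 with equal numbers, ESC KO against ESC WT (5) gave 3 with equal numbers, and CM KO against CM WT (8) gave 4, 5 and, where an interval had to cover most of the region, 5. Leaving out a library gave 41 to 44, 21 to 26, 5 to 10 and 9 to 12. These counts stand without shares of all regions and show only how the calls move. On the gene strand alone, the CCAAT box was in 7 G1/S promoters, the E2F site in 2 G2/M promoters, the TATA box in 1 G1/S promoter, and CHR with CCAAT in 1 G1/S and 8 G2/M promoters. The cause was not tested. For m6A, a window of the gene plus 2 kb and a cut by strength were not run, since listed positions lie within genes and carry no strength. RNA and m6A depth limit genes with few reads, and with 1 library per group the spread between samples is unknown.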
